A study of Mus musculus with 8 samples.

Results

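The subunits of the mitochondrial respiratory chain and of ATP synthase that the nuclear genome encodes were followed in CD8 T cells of young and aged mice. The members were chosen by name and not by their values, although earlier results of these data were known. They are the protein-coding genes of the RefSeq table whose symbols start with Ndufa, Ndufb, Ndufc, Ndufs or Ndufv (complex I), Sdha to Sdhd (complex II), Uqcr (complex III), Cox4i, Cox5, Cox6, Cox7 or Cox8 (complex IV) or Atp5 (complex V, the ATP synthase), without assembly factors. Of 88 such genes in the table, 84 had a probe on the array, among 45608 features in all. Cox5b, Ndufb1, Ndufb4b and Ndufb4c had no mapped probe and were not analysed here. A gene was tested if its probe carried the scanner software's flag for a spot well above background on at least 4 arrays, and 80 members and 21232 features passed. The 80 were 37 of 38 genes of complex I, 4 of 4 of complex II, 8 of 8 of complex III, 14 of 17 of complex IV and 17 of 17 of complex V, and each of them was well above background on 8 of 8 arrays. The other 4, Ndufa4l2, Cox7b2, Cox8b and Cox8c, were well above background on 0 arrays. The symbols are those of the RefSeq table, where for example Atp5a1 and Atp5b are the alpha and beta subunits of ATP synthase and Atp5g1, Atp5g2 and Atp5g3 encode subunit c. Ndufa4 was counted with complex I by its symbol, although its protein is now placed in complex IV. Cyc1, the cytochrome c1 of complex III, has a symbol outside the rule and was counted with the electron carriers.

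Expression was measured on 8 single-colour Agilent arrays with 1 array for each of 8 groups. The cells came from C57BL/6 mice and were taken from lymph nodes with beads against CD8a. The mice were 2 months (young) or 17 months (aged) old and were wild type (WT) or lacked PD-1, an inhibitory receptor of T cells (PD-1-/-, written PD-1KO in the group names). They either carried no tumor or had been inoculated with MC38, a mouse colon carcinoma line, 9 days earlier, which gives the groups Young_WT, Young_WT with tumor, Young_PD-1KO, Young_PD-1KO with tumor, Aged_WT, Aged_WT with tumor, Aged_PD-1KO and Aged_PD-1KO with tumor. The nodes were draining ones in mice with tumor and peripheral ones in mice without, so tumor and node cannot be told apart. The labels do not say how many mice gave the RNA of an array. Levels below are log2 signal minus the 75th percentile of the array, and differences are log2 with the standard error (SE) of limma's fit of age, genotype and tumor, 4 arrays against 4. No group has a replicate, so the SE measures departure from additive effects, and the number of arrays limits the precision.

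The count of probes well above background ran from 26266 to 27986 over the arrays, with 0 saturated spots. The 16 core genes of CD8 T cells were detected, with mean levels of 5.84 to 5.96 on the young and 5.60 to 5.81 on the aged arrays. Their median difference with age was -0.27, against -0.07 for all features. With age, Cd28 was called higher and Trat1 lower, and the other 14 did not pass. Pdcd1, the gene of PD-1, differed by -0.02 between PD-1KO and WT arrays (adjusted p = 0.991); the probe's place relative to the deletion is not known here, so this does not check the labels. All 8 arrays were on 1 slide with 1 scan time, and per the file names the young arrays lie in 1 row of the slide and the aged arrays in the other, so row and age cannot be told apart. In bulk RNA, fewer cells that express a gene and less RNA of it per cell cannot be told apart. The arrays differed in genes listed as markers of other cells. Whether CD8 T cells themselves express some of these genes was not tested. Of 17 detected genes of macrophages and monocytes, 12 rose with age, and their mean level was -1.17 to 0.10 on the young and 0.69 to 1.51 on the aged arrays; Cd163 was not detected. Genes of neutrophils (5 of 7), NK cells (5 of 7), B cells (4 of 12) and plasma cells (3 of 4) also rose. So did those of dendritic cells (3 of 11, with 1 lower) and CD4 T cells (2 of 5). Of 3 detected stromal genes 0 passed. Over all features 6.27% were called higher with age and 4.58% lower. These counts are of detected genes. Not detected were 2 genes each of the neutrophil, NK, B and plasma cell lists, 1 of CD4 T cells, 5 stromal and 4 erythroid genes. Hemoglobin genes stood at a mean of 3.86 in Aged_WT and between -3.45 and 0.03 on the other arrays, and 1 of 3 passed with age. The part of these genes in the results below was not tested. A fit with the macrophage level as a covariate was run, but that level did not overlap between the ages. With 8 arrays such a fit can hardly separate the level from age.

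Complex I passes electrons from NADH to ubiquinone, and complex II, which is also an enzyme of the tricarboxylic acid cycle, passes them from succinate. Complex III hands them through cytochrome c to complex IV, which reduces oxygen, and the protons pumped by complexes I, III and IV drive ATP synthase. Resting and memory T cells rely largely on this pathway, and activated T cells raise both glycolysis and mitochondrial mass as they divide. Most subunits come from nuclear genes whose promoters are known for sites of NRF1, GABP and YY1, and the rest come from mitochondrial DNA. The mitochondrially encoded subunits had no mapped probe and were not analysed here.

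Promoters of 4 members are shown because 3 of them (Sdha, Atp5h and Ndufa10) passed the test with age and the fourth, Uqcrc1, a core protein of complex III, holds several NRF1 matches. The sequences are RefSeq's, build GRCm38.p6, 250 bases before to 50 bases after the annotated start of the gene, read in the direction of transcription, with motif matches in capitals.
Sdha, chr13:74350191-74350490, minus strand: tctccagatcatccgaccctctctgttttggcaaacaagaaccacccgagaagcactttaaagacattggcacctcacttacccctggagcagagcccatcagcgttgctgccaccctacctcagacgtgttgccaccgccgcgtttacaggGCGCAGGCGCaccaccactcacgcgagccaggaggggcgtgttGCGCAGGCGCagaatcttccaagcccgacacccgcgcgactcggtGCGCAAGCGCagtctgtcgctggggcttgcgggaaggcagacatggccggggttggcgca
Atp5h, chr11:115419870-115420169, minus strand: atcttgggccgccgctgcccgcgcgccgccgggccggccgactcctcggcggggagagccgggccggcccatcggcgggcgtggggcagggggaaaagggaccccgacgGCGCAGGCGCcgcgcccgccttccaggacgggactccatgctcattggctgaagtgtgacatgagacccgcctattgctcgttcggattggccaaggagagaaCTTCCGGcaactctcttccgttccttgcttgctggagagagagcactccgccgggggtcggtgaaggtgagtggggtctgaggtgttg
Ndufa10, chr1:92473709-92474008, minus strand: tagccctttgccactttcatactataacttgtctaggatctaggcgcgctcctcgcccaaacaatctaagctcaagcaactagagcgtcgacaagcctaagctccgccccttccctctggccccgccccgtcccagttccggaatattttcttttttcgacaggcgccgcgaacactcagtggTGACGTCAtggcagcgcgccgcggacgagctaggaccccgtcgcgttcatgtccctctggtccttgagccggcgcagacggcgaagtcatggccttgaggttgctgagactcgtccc
Uqcrc1, chr9:108936398-108936697, plus strand: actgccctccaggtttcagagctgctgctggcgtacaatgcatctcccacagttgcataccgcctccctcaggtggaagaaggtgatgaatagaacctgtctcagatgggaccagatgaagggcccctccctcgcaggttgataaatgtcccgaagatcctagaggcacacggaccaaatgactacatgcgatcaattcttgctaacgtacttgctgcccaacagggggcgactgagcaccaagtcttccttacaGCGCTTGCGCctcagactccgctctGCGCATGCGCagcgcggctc
In Sdha the capitals mark 3 matches to the NRF1 motif, whose left ends lie at -98, -55 and -10 from the start site. In Atp5h they mark an NRF1 match at -141 and a match to the GABP motif CCGGAAG at -38, in Ndufa10 a match to the cAMP response element TGACGTCA at -67, and in Uqcrc1 NRF1 matches at 6 and 31, past the start site. Motifs were searched on both strands, so a match may be printed as the reverse complement.

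A promoter of this length was given for 66 of the 80 members. The NRF1 motif stood in 17 of the 66 promoters (25.8%), against 5.19% of 27025 genes and 7.17% of 17492 protein-coding genes. CCGGAAG stood in 17 (25.8%, against 9.93% of all and 12.95% of coding genes), and the YY1 motif AAGATGGCG in 7 (10.6%, against 1.64% and 2.14%). TGACGTCA stood in 4 (6.1%, against 2.03% and 2.54%), which are those of Ndufa10, Ndufa11, Ndufb2 and Uqcrfs1. In all, 35 of 66 promoters held a match for NRF1, GABP or YY1 and 31 held none of these. Of 9 patterns searched, the other 5 were 4 variants of these and TGACCT. A stricter form of the NRF1 motif stood in 5 members (7.6%, against 1.07% of all and 1.47% of coding genes). A longer palindromic form stood in 1 (Uqcrc1, 1.5%, against 0.17% and 0.25%). ACTTCCGG, which overlaps the GABP motif on the other strand, stood in 5 (7.6%, against 4.31% and 5.69%). A longer form of the YY1 motif stood in 4 (6.1%, against 1.17% and 1.63%). TGACCT, part of the site of nuclear receptors, stood in 14 (21.2%, against 18.13% and 16.7%). The motifs were chosen with values known. The median difference with age was -0.22 in the members whose promoter held the NRF1 motif and -0.08 in those without it, against -0.16 and -0.14 for GABP, -0.14 and -0.15 for YY1 and -0.37 and -0.13 for TGACGTCA. No test was made of these splits; a match is only a string of letters, and binding was not measured.

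The comparison of 17 with 2 months asks how subunit expression differs in CD8 T cells of aged mice. Atp5h (subunit d of the stalk that holds the ATP synthase head), Ndufa10 (an accessory subunit of complex I) and Sdha (the flavoprotein of complex II that oxidises succinate) fell with age, by 0.41 to 0.58 on the log2 scale. No member rose, and 77 of 80 did not pass. The 3 falls are 3.75% of the members, against a background of 4.58% of all features called lower, 6.27% called higher and 10.9% called in either direction, so the members were not called more often than other features. At an unadjusted p under 0.05, 17 members were lower (21.2%, against 20% of all features) and 1 was higher (15.2% of all features). The fitted difference was below 0 in 59 of 80 members (73.8%, against 58.5% of all features). The median difference of the members was -0.15 against -0.07 for all features. It was -0.03 against -0.04 after quantile normalization and -0.03 against -0.03 in the authors' value table. The shift of the members as a whole thus depends on the scaling. Columns of the authors' table have nearly equal sorted values, as after quantile normalization, so these settings are not independent of each other. The members' median was -0.09 both without Young_PD-1KO with tumor and without Aged_WT with tumor.

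**Figure D1:**
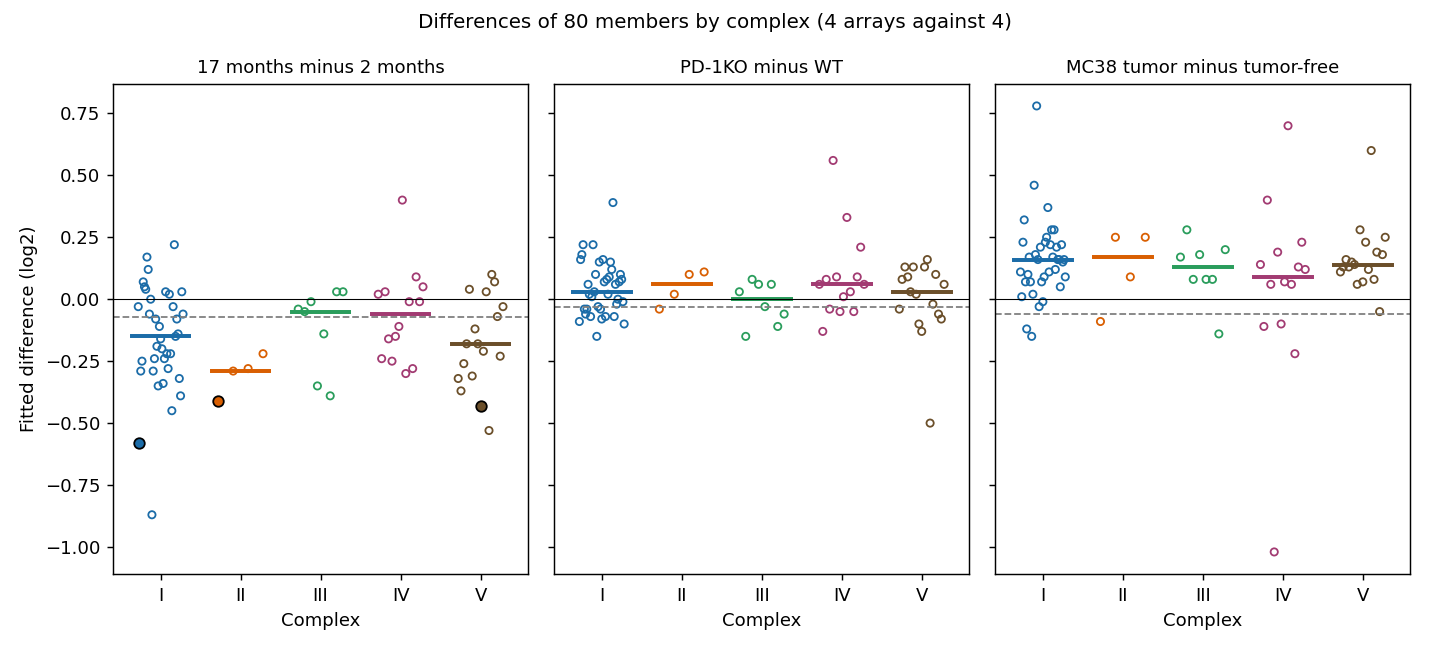
Fitted log2 differences with age, genotype and tumor (vertical axis) of the 80 members by complex (horizontal axis), 1 point per member, with the median of each complex as a coloured bar and the median of all 21232 features as a dashed line. Filled points with a black edge are the 3 members that passed with age (Ndufa10, Sdha and Atp5h); no member passed with genotype or tumor, and most points lie above 0 in the tumor panel.

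The values of the 3 members are given for the arrays in the order WT, WT with tumor, PD-1KO and PD-1KO with tumor. The level of Atp5h was 7.03, 7.16, 6.96 and 7.11 in young and 6.75, 6.72, 6.53 and 6.54 in aged mice. All 4 young arrays lay above all 4 aged arrays, and the difference was -0.43 (SE 0.09, adjusted p = 0.0399), lower in 4 of 4 pairs (an aged and a young array of the same genotype and tumor status). The level of Ndufa10 was 4.58, 4.71, 4.63 and 4.81 in young and 4.20, 3.75, 4.14 and 4.31 in aged mice. Again the ages did not overlap, with Aged_WT with tumor the lowest, and the difference was -0.58 (SE 0.14, adjusted p = 0.0459). The level of Sdha was 4.73, 4.60, 4.63 and 4.71 in young and 4.44, 4.15, 4.23 and 4.22 in aged mice. Its ages were separate too, with a difference of -0.41 (SE 0.10, adjusted p = 0.04996) that lies just under the threshold of 0.05. These calls were lost after quantile normalization, in the authors' value table, without the filter on dim probes and with the macrophage level as a covariate (adjusted p of 0.823 to 0.872), and 1 (Ndufa10) was kept without scaling. With the mean of a gene's probes Sdha was kept, while Ndufa10 (-0.65) and Atp5h (-0.29) were lost. Atp5h was also lost with normexp background correction (-0.16), and Sdha with age as the only term. The other 2 probes of Atp5h differed with age by -0.31 and -0.15. All 3 calls were also lost without any 1 of Young_WT, Young_WT with tumor, Young_PD-1KO, Young_PD-1KO with tumor, Aged_PD-1KO or Aged_PD-1KO with tumor; without Aged_WT with tumor 1 (Ndufa10) was called, and without Aged_WT 6 (the 3 and Uqcrfs1, Atp5b and Ndufb2).

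**Figure D2:**
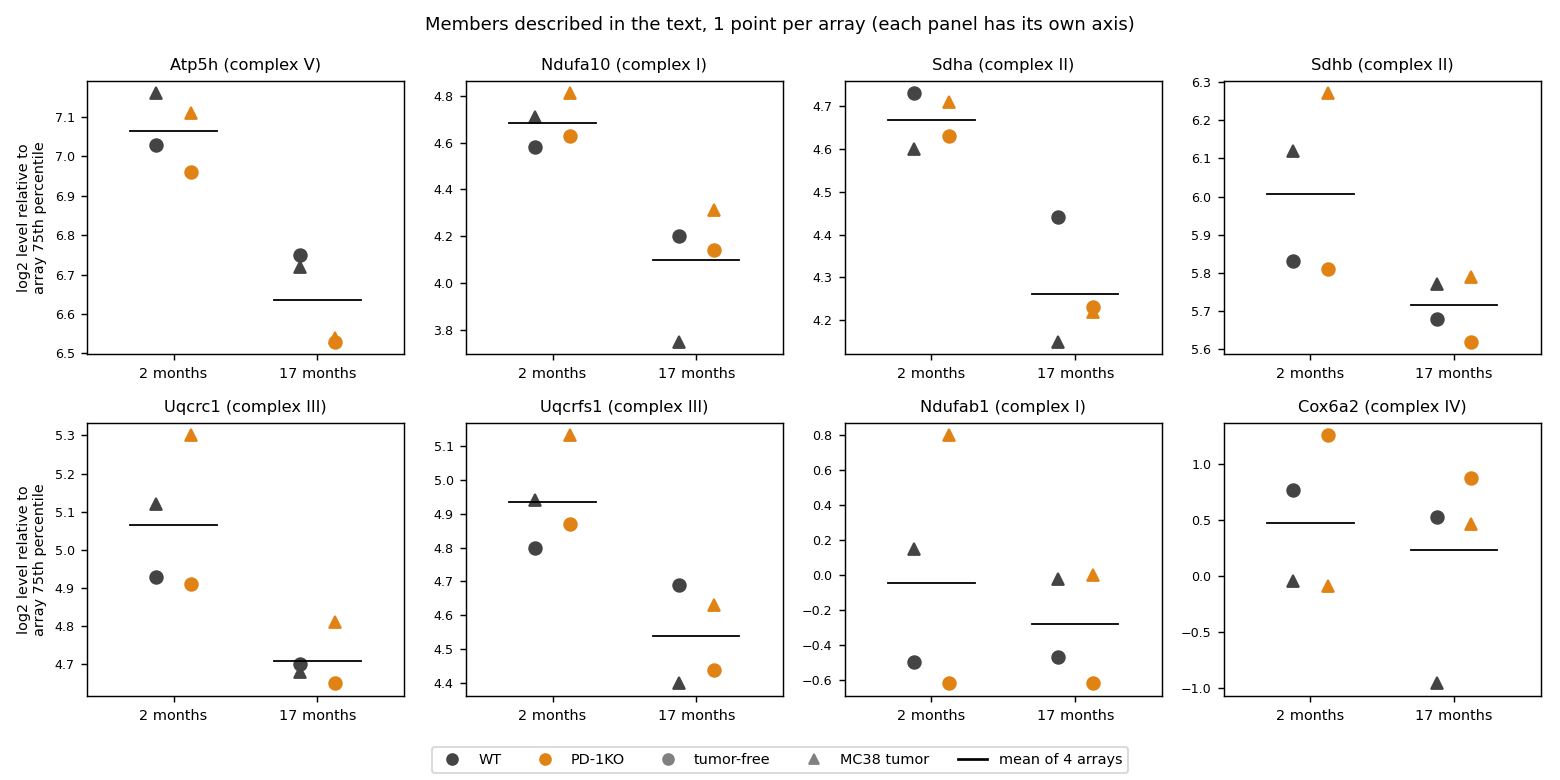
Log2 signal minus the array's 75th percentile (vertical axis, its own range in each panel) of 8 members at 2 and 17 months, 1 point per array; colour gives genotype, shape gives tumor and the bar is the mean of 4 arrays. Atp5h, Ndufa10, Sdha, Sdhb, Uqcrc1 and Uqcrfs1 show no overlap of young and aged arrays, Ndufab1 is higher and Cox6a2 lower on the tumor arrays of each age.

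Across the members, 13 had all 4 aged arrays below all 4 young arrays (16.2%, against 12.4% of all features) and 0 had the reverse order (7.77% of all features). The 13 are Ndufa8, Ndufa10, Ndufs7 and Ndufv1 of complex I, Sdha, Sdhb and Sdhc of complex II, Uqcrc1, Uqcrc2 and Uqcrfs1 of complex III, and Atp5a1, Atp5b and Atp5h of complex V; complex IV has none. In 4 of 4 pairs, 27 members were lower with age (33.8%, against 27.5%) and 1, Ndufs4, was higher (1.25%, against 17.9%).

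The medians of the complexes with age were -0.29 for complex II, -0.18 for V, -0.15 for I, -0.06 for IV and -0.05 for III. The gap of 0.24 between complexes II and III, picked as the lowest and the highest, has no test. The gap between their medians on single arrays departed from additivity with an SD of 0.084. That SD is of single arrays and is not the spread of the gap of 0.24. After quantile normalization the medians were -0.17, -0.07, -0.02, 0.03 and 0.07 in the same order of complexes, so that III and IV turned above 0 while II remained the lowest. With the macrophage level as a covariate they were -0.10, 0.17, 0.13, 0.27 and 0.30, in a fit that can hardly separate age from that level.

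In complex II, succinate dehydrogenase, 1 of 4 subunits (Sdha) passed with age, and the differences ran from -0.41 to -0.22. Sdhb, the iron-sulfur subunit, had levels of 5.83, 6.12, 5.81 and 6.27 in young and 5.68, 5.77, 5.62 and 5.79 in aged mice. The ages did not overlap, and the difference of -0.29 (SE 0.10, adjusted p = 0.0988) did not pass. Sdhc, a membrane anchor, had levels of 2.90, 3.06, 3.07 and 3.14 against 2.67, 2.78, 2.78 and 2.81. Here as well all young arrays were above all aged ones, with a difference of -0.28 (SE 0.09, adjusted p = 0.0784). Sdhd, the other anchor, had levels of 4.49, 4.71, 4.57 and 5.20 against 4.46, 4.64, 4.49 and 4.48. Its ages overlapped and Young_PD-1KO with tumor lay far above the other arrays; the difference was -0.22 (SE 0.14, adjusted p = 0.292), lower in 4 of 4 pairs. Of the 4 subunits, 4 were lower in every pair (27.5% of all features were) and 3 had separate ages with the aged arrays lower (12.4% of all features); 4.58% of all features were called lower. No test was made of the complex as a whole.

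In complex I, 1 of 37 members passed. The 7 core subunits, which carry the flavin, the iron-sulfur clusters and the quinone site outside the membrane, had a median of -0.22 and 0 of 7 passed; the 29 accessory subunits had a median of -0.15 and 1 of 29 (Ndufa10) passed. These role groups were formed after the values were seen. Ndufv1, which binds NADH and flavin, had levels of 5.19, 5.33, 5.11 and 5.50 in young and 4.92, 4.76, 4.84 and 5.06 in aged mice. The ages were separate, with a difference of -0.39 (SE 0.11, adjusted p = 0.0717). Ndufs1, the largest subunit of the NADH-oxidising part, differed by -0.22 (SE 0.12, adjusted p = 0.215). Its level was 4.32, 4.52, 4.38 and 4.84 against 4.26, 4.28, 4.33 and 4.31, so only the tumor arrays of young mice stood well apart. Ndufa8, an accessory subunit, had the lowest difference of all members, -0.87 (SE 0.31, adjusted p = 0.102). Its levels were 3.12, 3.25, 3.10 and 3.31 in young and 1.26, 2.98, 2.65 and 2.41 in aged mice, where Aged_WT alone lay far below the rest. Ndufs4, an accessory subunit that stabilises the NADH-oxidising part, had the highest difference of complex I, 0.22 (SE 0.12, adjusted p = 0.214), with levels of 4.27, 4.60, 4.50 and 4.78 against 4.82, 4.79, 4.60 and 4.83. The accessory subunit Ndufb10 differed by -0.08 (SE 0.10, adjusted p = 0.598), and Ndufa4 by 0.17 (SE 0.15, adjusted p = 0.437).

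In complex III 0 of 8 members passed with age. The core proteins Uqcrc1 and Uqcrc2 and the Rieske iron-sulfur protein Uqcrfs1 had differences with age of -0.35, -0.14 and -0.39, with 0 of 3 past the threshold, and the 5 small subunits lay between -0.05 and 0.03 with a median of -0.01. The difference between these role groups was not tested. Uqcrc1 had levels of 4.93, 5.12, 4.91 and 5.30 in young and 4.70, 4.68, 4.65 and 4.81 in aged mice. Its ages were separate (SE 0.10, adjusted p = 0.0683). Uqcrfs1 had levels of 4.80, 4.94, 4.87 and 5.13 against 4.69, 4.40, 4.44 and 4.63. These ages were also separate (SE 0.12, adjusted p = 0.0771). Uqcrh, the hinge protein near cytochrome c1, had the highest difference of the complex, 0.03 (SE 0.12, adjusted p = 0.871). Cyc1, cytochrome c1 itself, is not among these members by its symbol. It differed by -0.45 (SE 0.15, adjusted p = 0.0861) and did not pass.

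Complex IV had 0 of 14 members past the threshold with age. Its 9 ubiquitous or single-isoform subunits had a median of 0.02 (with 4 of 9 below 0), and its 4 tissue-restricted isoforms had a median of -0.24. Cox6c, a subunit with a single isoform, had the highest difference of all members, 0.40 (SE 0.16, adjusted p = 0.132). Its levels were 5.98, 6.57, 6.39 and 6.06 in young and 6.71, 6.53, 6.59 and 6.79 in aged mice, which overlap only through Young_WT with tumor. The ubiquitous Cox4i1 differed by 0.02 (SE 0.11, adjusted p = 0.932) and its lung-type isoform Cox4i2 by -0.24 (SE 0.14, adjusted p = 0.266). In the other isoform pairs the ubiquitous and the restricted form differed with age by -0.16 and -0.25 (Cox6a1, Cox6a2), -0.15 and -0.11 (Cox6b1, Cox6b2) and -0.01 and -0.30 (Cox7a2, Cox7a1). None of these 6 passed. Cox8a, the ubiquitous form of subunit 8, differed by 0.05, Cox5a by 0.03, and Cox7a2l, a relative of Cox7a2, by -0.28 (SE 0.12, adjusted p = 0.142).

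In ATP synthase 1 of 17 members passed. Of the 5 genes of the catalytic head and central stalk 0 passed with age, and their differences ran from -0.37 to 0.04. Atp5a1, the alpha subunit, had levels of 7.25, 7.38, 7.18 and 7.45 in young and 7.06, 7.01, 6.90 and 7.0 in aged mice. The ages were separate, and the difference was -0.32 (SE 0.10, adjusted p = 0.0729). Atp5b, the catalytic beta subunit, had levels of 7.09, 7.35, 7.14 and 7.48 against 7.0, 6.74, 6.83 and 7.03. The lowest young value was only just above the highest aged one, and the difference was -0.37 (SE 0.12, adjusted p = 0.0916). The 5 genes of the head and central stalk had a median of -0.26, the 3 genes of subunit c -0.18 and the 4 of the peripheral stalk -0.22, with 1 of 4 (Atp5h) past the threshold. Among the subunit c genes, whose proteins form the rotating ring, Atp5g1 differed by -0.31, Atp5g2 by -0.12 and Atp5g3 by -0.18. The other 5 membrane subunits had a median of 0.03. They hold both ends of the complex, Atp5l (subunit g) at 0.10 (SE 0.11, adjusted p = 0.535) and Atp5k (subunit e) at -0.53 (SE 0.33, adjusted p = 0.281). Atp5k had levels of 5.76, 6.00, 5.66 and 6.08 in young and 5.83, 5.86, 4.0 and 5.70 in aged mice, so Aged_PD-1KO alone was low; without that array the difference with age was -0.13. Atpif1, the inhibitor of ATP synthase, is no member by its symbol and differed by 0.02 (SE 0.15, adjusted p = 0.939).

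**Figure D3:**
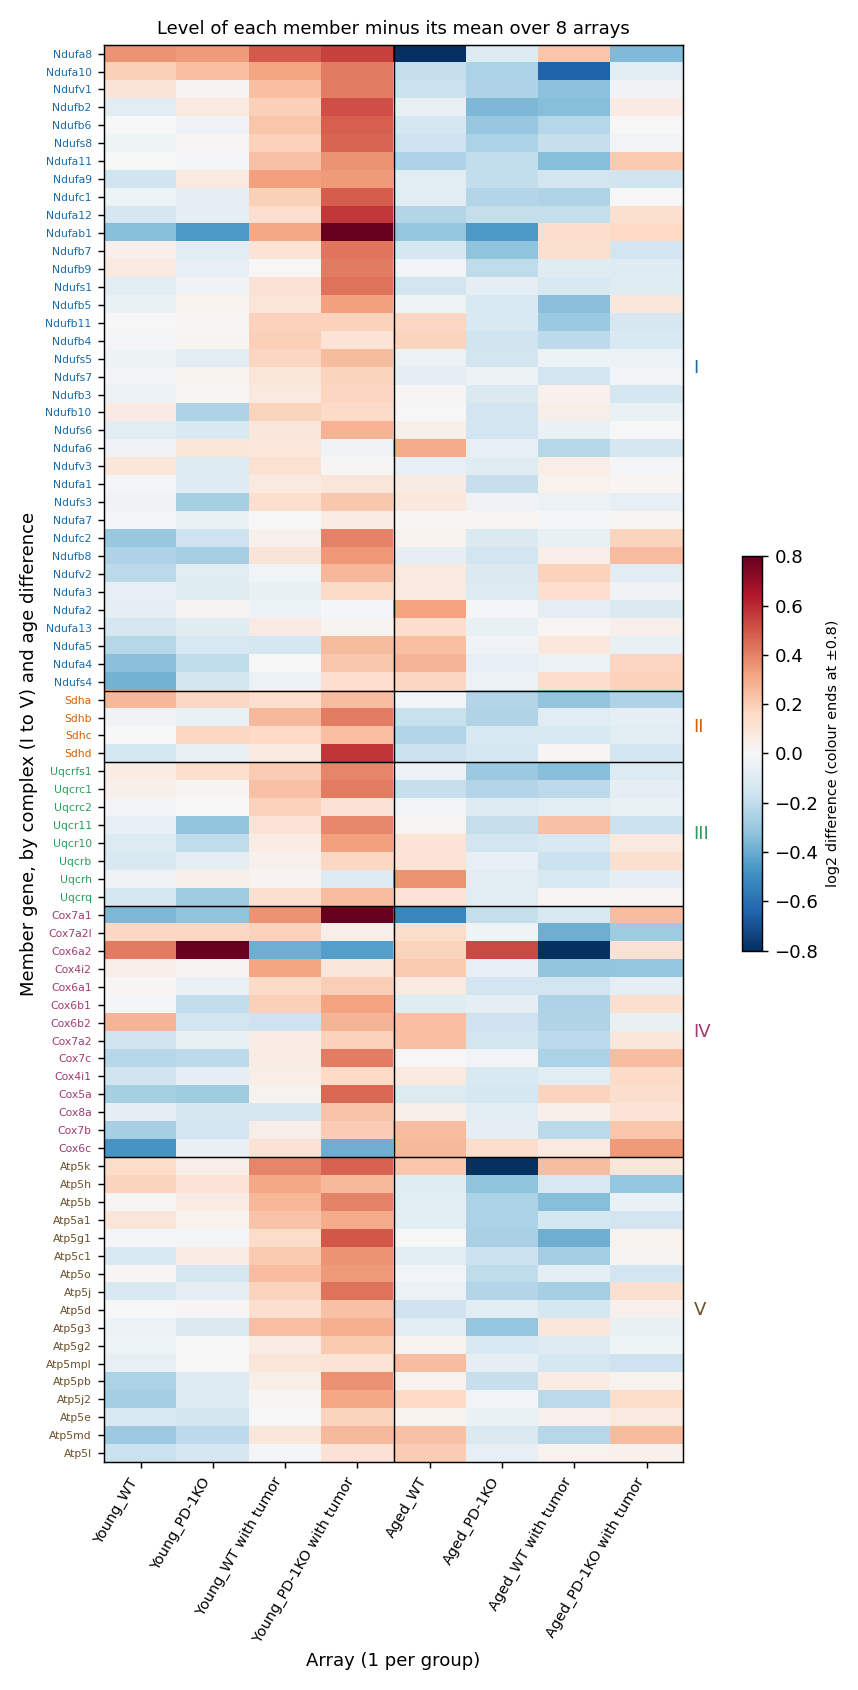
Level of 79 of the 80 members (rows, by complex and by their difference with age) on each of the 8 arrays (columns), minus the member's mean over the arrays, on a log2 colour scale that ends at 0.8 to either side. The column of Young_PD-1KO with tumor is the highest for 57 members, and most rows of complex I, II and V are bluer in the 4 aged columns on the right.

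The comparison of tumor-bearing with tumor-free mice asks how subunit levels differ 9 days after MC38 inoculation. No member and none of 21232 features passed in limma (0%), and the smallest adjusted p was 0.0954 among members and 0.0548 among all features. The members nevertheless lay mostly on 1 side: 69 of 80 had a difference above 0, and 11 were below 0 (13.8%, against 59.2% of all features). The median difference was 0.14 for the members and -0.06 for all features, and 0.17, 0.16, 0.14, 0.13 and 0.09 for complexes II, I, V, III and IV. The members' median stayed above 0 after quantile normalization (0.10), without scaling (0.14) and in the authors' value table (0.10), and it was 0.08 without Young_PD-1KO with tumor. At an unadjusted p under 0.05, 7 members were higher (8.75%, against 9.21%) and 1 lower (1.25%, against 11.4%). In 4 of 4 pairs 19 members were higher (23.8%, against 13.4%) and 1 was lower (1.25%, against 17.3%). All 4 tumor arrays were above all tumor-free arrays in 4 members (5%, against 4.32%) and below them in 1 (1.25%, against 2.98%).

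The 4 members whose tumor arrays were all higher are Ndufab1, Ndufb8, Cox5a and Cox7a1, and Cox6a2 was the 1 whose tumor arrays were all lower. Ndufab1, the mitochondrial acyl carrier protein and an accessory subunit of complex I, had tumor-free levels of -0.50 (Young_WT), -0.62 (Young_PD-1KO), -0.47 (Aged_WT) and -0.62 (Aged_PD-1KO). With tumor the levels were 0.15, 0.80, -0.02 and 0.00 in the same order, highest in Young_PD-1KO with tumor, a difference of 0.78 (SE 0.18, adjusted p = 0.0999). Cox7a1, an isoform known from heart and muscle, had levels of -1.82, -1.78, -1.98 and -1.65 without and -1.10, -0.54, -1.59 and -1.21 with tumor. The difference was 0.70 (SE 0.15, adjusted p = 0.0954), and again the young PD-1KO array was the highest. Cox6a2, another isoform of heart and muscle, had levels of 0.77, 1.26, 0.53 and 0.88 without and -0.04, -0.09, -0.96 and 0.47 with tumor. It ran the other way, by -1.02 (SE 0.23, adjusted p = 0.0961). Cox5a, a subunit on the matrix side of complex IV, had levels of 6.38, 6.36, 6.53 and 6.50 without and 6.67, 7.10, 6.82 and 6.78 with tumor, a difference of 0.40 (SE 0.12, adjusted p = 0.158). Ndufb8, an accessory subunit of complex I, differed by 0.37 (SE 0.11, adjusted p = 0.146). Among members with the same sign in 4 of 4 pairs, Ndufab1, Cox7a1 and Atp5k (0.60, SE 0.33, adjusted p = 0.338) had the largest differences above 0. That of Atp5k rests on the low Aged_PD-1KO array, without which it was 0.20. With array weights, 4 members passed (Cox7a1, Ndufab1 and Ndufb8 higher, Cox6a2 lower), with 7.99% of all features called.

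**Figure D4:**
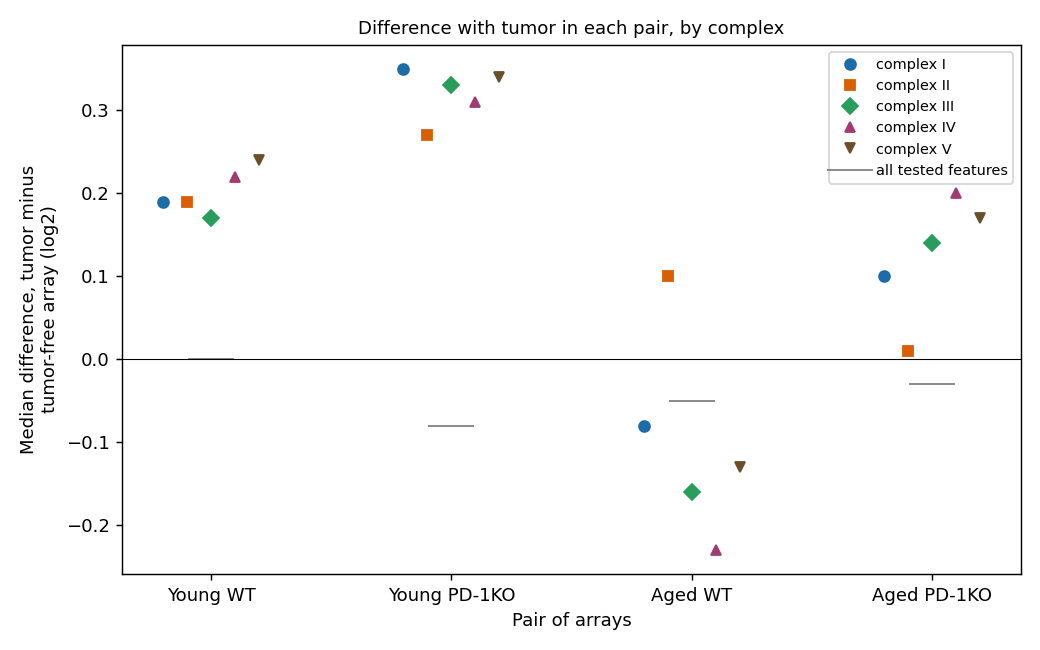
Median log2 difference between the tumor and the tumor-free array (vertical axis) of the members of each complex, for the 4 pairs of arrays that differ in tumor alone (horizontal axis); grey bars are the median of all 21232 features. All 5 complexes lie above 0 in both young pairs, and complexes I, III, IV and V lie below 0 in the Aged_WT pair.

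The difference with tumor was not alike in the 4 pairs of arrays. The median over the members was 0.19 in young WT, 0.35 in young PD-1KO, -0.09 in aged WT and 0.15 in aged PD-1KO mice, while the medians of all features lay between -0.08 and 0.00. Members below 0 numbered 5, 6, 57 and 15 of 80 in these pairs, against 50.4%, 58.7%, 54.6% and 54.1% of all features. Complex II alone had a median above 0 in the aged WT pair (0.10), where complexes I, III, IV and V stood at -0.08, -0.16, -0.23 and -0.13. In the interaction model 0 members passed for age by tumor, and 0 did at an unadjusted p under 0.05 (0% and 4.08% of all features), so a difference between the ages is not shown for any member.

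Seen by array, Young_PD-1KO with tumor was the highest of the 8 for 57 of 80 members (71.2%, against 19.8% of all features). That holds for 27 of 37 members of complex I, 3 of 4 of II, 6 of 8 of III, 7 of 14 of IV and 14 of 17 of V. The lowest array was Aged_WT with tumor for 25 members (31.2%, against 24.4%), Aged_PD-1KO for 21 (26.2%, against 8.04%), Young_WT for 13 (16.2%, against 7.87%), Young_PD-1KO for 11 (13.8%, against 5.84%), Aged_WT for 7 (8.75%, against 10%) and Aged_PD-1KO with tumor for 3 (3.75%, against 18%). Neither young tumor array was the lowest for any member (8.85% of all features for Young_WT with tumor, 17% for Young_PD-1KO with tumor). The other highest arrays were Young_WT with tumor for 9 members (10% of all features), Aged_WT for 9 (15.9%), Young_WT for 2 (13.2%), Aged_PD-1KO with tumor for 2 (7.8%) and Young_PD-1KO for 1 (9.07%), whereas Aged_WT with tumor (19.4%) and Aged_PD-1KO (4.85%) were the highest for 0. Relative to each member's mean, the median over the members was -0.04, 0.12, -0.06 and 0.27 in young and 0.00, -0.12, -0.14 and -0.01 in aged mice, in the order WT, WT with tumor, PD-1KO and PD-1KO with tumor. The range of a member over the 8 arrays ran from 0.11 (Ndufa7) to 2.22 (Cox6a2), with a median of 0.57, and 7 members ranged over 1 or more (8.75%, against 37.5% of all features). They include Ndufa8, Ndufa10, Ndufab1, Cox6a2, Cox7a1 and Atp5k. Members and all features were not matched for level in this comparison of ranges.

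**Figure D5:**
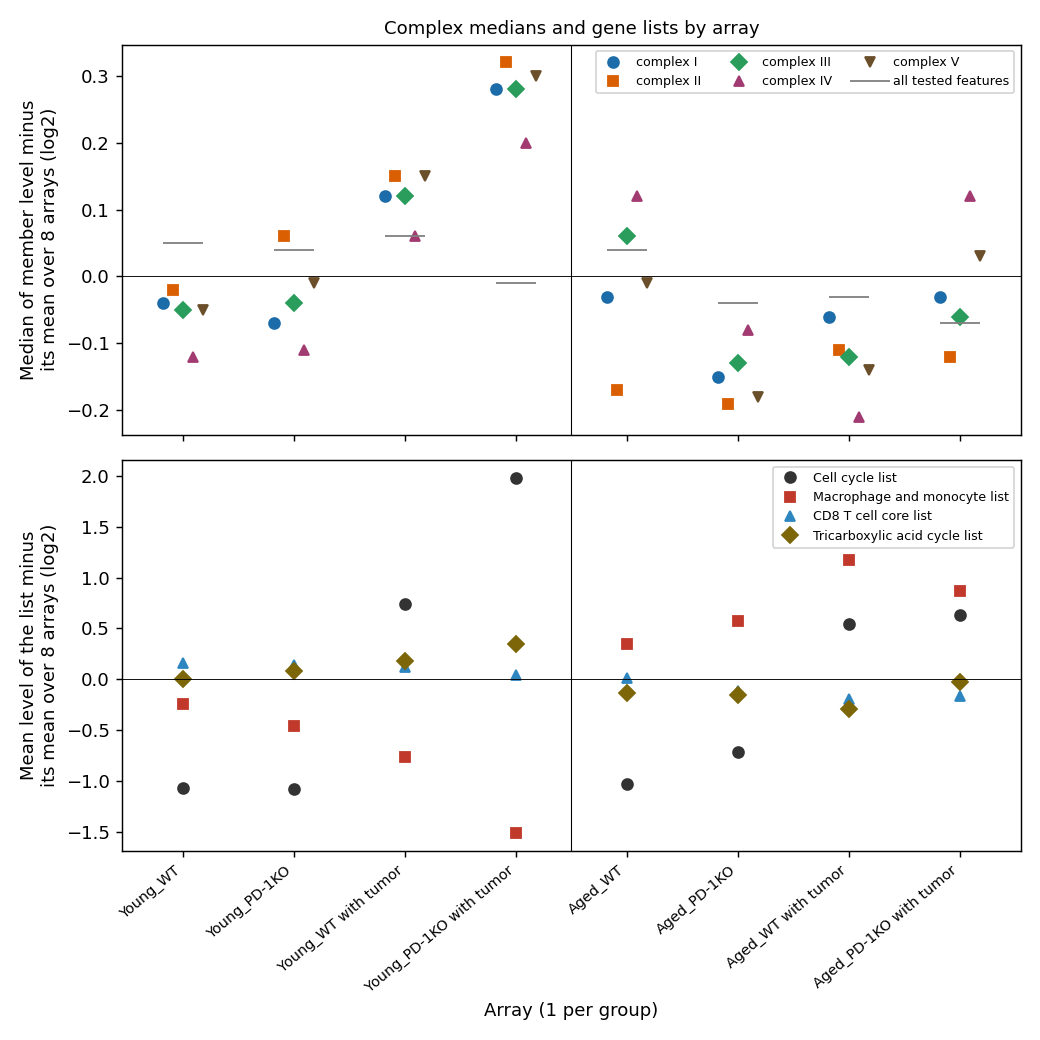
The upper panel shows the median of each complex on each array relative to the members' means over 8 arrays, with the median of all features as a grey line; the lower panel shows the mean level of 4 gene lists in the same way (log2, 1 point per array). The complexes and the cell cycle list both have their highest value in Young_PD-1KO with tumor, where the macrophage list has its lowest.

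The same array was at an end of the range for genes of dividing cells and of macrophages. The mean level of 17 cell cycle genes was 1.30, 3.11, 1.29 and 4.35 in young and 1.34, 2.92, 1.66 and 3.01 in aged mice, in the order WT, WT with tumor, PD-1KO and PD-1KO with tumor. All 17 were detected and 0 passed with tumor, where their median difference was 2.29. The macrophage genes had means of 0.10, -0.42, -0.12 and -1.17 in young and 0.69, 1.51, 0.91 and 1.21 in aged mice. With their mean as a covariate, the median difference of the members with age was 0.19 against -0.01 for all features, 0 members passed in either direction, and 2 features passed in all. The part of cell division in the members' levels was not tested.

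The comparison of PD-1KO with WT asks how loss of PD-1 acts on the same genes. No member passed, with 0.0283% of all features called (0.0188% higher and 0.00942% lower). The median difference was 0.03 for the members and -0.03 for all features, and it was -0.03 without Young_PD-1KO with tumor and 0.11 without Aged_WT. At an unadjusted p under 0.05, 1 member was higher (4.01% of all features), Cox6a2, at 0.56 (SE 0.23, adjusted p = 0.474), and 0 were lower (6.37%). The genotypes did not separate in any member, in either direction (0.593% of all features higher, 1.95% lower), and 30 of 80 differences were below 0 (37.5%, against 56.1%). Among members with the same sign in 4 of 4 pairs, which 6 had above 0 (7.5%, against 8.33%) and 3 below 0 (3.75%, against 13.5%), the largest differences were those of Cox7a1 (0.33, SE 0.15, adjusted p = 0.499), Ndufa12 (0.22, SE 0.12, adjusted p = 0.535) and Ndufs1 (0.12, SE 0.12, adjusted p = 0.700). The lowest were those of Ndufb10 (-0.15, SE 0.10, adjusted p = 0.588), Atp5h (-0.13, SE 0.09, adjusted p = 0.615) and Ndufv3 (-0.10, SE 0.09, adjusted p = 0.680). The complexes lay between 0.00 (III) and 0.06 (II and IV). By pair, the members' median was 0.02 in young tumor-free, 0.14 in young tumor-bearing, -0.17 in aged tumor-free and 0.07 in aged tumor-bearing mice, and in the aged tumor-free pair 67 of 80 members were below 0 (57.1% of all features). For age by genotype and genotype by tumor, 0 members passed, and 0 did at an unadjusted p under 0.05 (2.86% and 3.20% of all features).

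Other genes of the pathway were counted from lists drawn up with earlier results known. Over all features 6.27% were called higher and 4.58% lower with age, beside which the counts of these lists are to be read. Of 55 detected assembly factors, 0 rose and 2 fell with age: Cox10, which makes heme for complex IV, by 0.56 (SE 0.10, adjusted p = 0.0245), and Tmem242, which helps to assemble ATP synthase, by 0.80 (SE 0.14, adjusted p = 0.0261). Lyrm7 was not detected, and Uqcc4, Uqcc5 and Uqcc6 had no mapped probe. Of 16 genes of mitochondrial gene expression 1 fell, Polrmt, the mitochondrial RNA polymerase (by 0.40, SE 0.09, adjusted p = 0.0454). Of 15 detected nuclear regulators 1 fell, Nrf1 (by 0.39, SE 0.09, adjusted p = 0.0458), and Ppargc1a and Ppara were not detected. Of 18 genes of the tricarboxylic acid cycle and pyruvate dehydrogenase 1 fell, Pdha1, a subunit of pyruvate dehydrogenase (by 0.43, SE 0.10, adjusted p = 0.0473). The adjusted p of Polrmt, Nrf1 and Pdha1 lies just under the threshold of 0.05. The calls of list genes were not followed under the alternative settings. None of 19 genes of electron carriers and ubiquinone synthesis and none of 20 of glycolysis passed with age. The medians with age were -0.31 for the tricarboxylic acid cycle, -0.25 for mitochondrial gene expression, -0.23 for electron carriers, -0.19 for assembly factors, -0.13 for glycolysis and -0.08 for the regulators, beside -0.15 for the members. With tumor none of these genes passed, and the medians were 0.31 for glycolysis, 0.18 for electron carriers, 0.10 for the tricarboxylic acid cycle and for assembly factors, 0.02 for mitochondrial gene expression and -0.03 for the regulators. With genotype none of them passed either.

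The array reads 17 of the members with more than 1 probe that passed the filter and 63 with 1. The sign of the difference with tumor was the same at all probes of these 17 members, while that with age differed in 2 (Ndufa3 and Uqcrb) and that with genotype in 6. At their dimmest probes, Sdha differed with age by -0.53, Sdhb by -0.66, Ndufa10 by -0.71, Ndufv1 by -0.51, Atp5a1 by -0.72 and Atp5h by -0.15. Over the 17 members the median difference with age was -0.23 at the brightest and -0.40 at the dimmest probe, lower at the dimmest in 12 of 17. The size of a member's difference with age therefore varies with the probe, by up to 0.40 (Atp5a1).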

How the data were processed

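RNA of 8 groups of CD8 T cells was hybridized to 8 Cy3 arrays. Per the file headers, the processed signal of Agilent Feature Extraction 11.0.1.1 (named also in the submitters' processing notes) is a linear intensity after background subtraction. The deposited flags (unit other) mark spots as 0 or 1. The deposited value table is in log2, with equal medians of 9.10327 in all columns. Its scaling is not given in the sources used here. Its sorted values differ between columns by at most 0.00157, as they would after quantile normalization. That table served as an alternative, which is therefore not independent of the alternative with quantile normalization.

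The 56605 non-control probes lost 12 with a spot flagged as non-uniform or as a population outlier, and 27237 of them were well above background on at least 4 arrays. The log2 intensity minus the array's 75th percentile (292 to 382 in signal) was used, with the probe of highest mean for each gene. RefSeq named 32988 probes, and 23605 kept the file's name. The file headers give mm9 as the build of the array design, whereas the RefSeq tables are of GRCm38.p6.

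limma 3.58.1 (R 4.3.3; files read with data.table, version 1.17.8) fitted age, genotype and tumor as additive terms (4 residual and 2.70 prior degrees of freedom), and all 3 pairwise interactions in another model (1 and 3.29). P-values are 2-sided; the Benjamini-Hochberg adjustment ran over 21232 features, with a threshold of 0.05. Each array differs from every other in age, genotype or tumor status, so the arrays came from different mice. How many mice gave each array is not stated. No group has a replicate, so p-values measure only departure from the fitted effects. Spread between mice and technical spread cannot be told apart in that departure. The fits were tested on simulated data with independent noise and planted differences larger than those of the members called with age. Differences of the size of those calls were not simulated. The values of 1 member are not reported here by name; it is kept in the counts and medians. Members and lists were chosen with earlier results of these data known. Named were the members that passed, in comparisons with under 3 of these the 3 largest differences each way with 1 sign in all pairs, the highest and the lowest with age in each complex, isoform sets and catalytic subunits, and list genes that passed with age. Ndufa3, Ndufa7, Ndufa11, Ndufs7, Ndufb2, Ndufb8, Uqcrb and Uqcrc2 lie outside this rule and were named after their values were seen, as were Cd28, Trat1 and Cyc1. Alternatives were other scaling, background correction, filters, probe choice, the authors' table, an intensity trend, array weights, a macrophage covariate, each factor alone, Ndufa4 with complex IV, and each array left out.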

Additional observations from a re-analysis of the deposited data

Results flagged for a closer look

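The median difference of complex III with genotype lay at or below 0 in both tumor-free pairs (-0.21 in aged mice and just under 0 in young mice) and above 0 in both tumor-bearing pairs (0.09 in aged and 0.16 in young mice). The means of these pairs differ by 0.23. The 8 members of complex III were all below 0 in the aged tumor-free pair.

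The median difference of complex IV with age was above 0 in both tumor-free pairs (0.14 in WT and 0.01 in PD-1KO) and below 0 in both tumor-bearing pairs (-0.29 in WT and -0.17 in PD-1KO). The means of these pairs differ by -0.30. Both were picked because the pairs of arrays took opposite signs. Neither difference between medians was tested, and 0 single members passed for these interactions. With 1 array per group, no array could be set against others of its group.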

How the results depend on the processing

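With age, 3 members were called, against 0 after quantile normalization, in the authors' value table, without a filter on dim probes and with the macrophage covariate, 1 without scaling, 2 with the mean of a gene's probes (Sdha and Atp5a1), 2 with age as the only term (Ndufa10 and Atp5h), 8 with an intensity trend, 10 with array weights, 11 (1 of them, Cox6c, higher, and Atp5h not among them) with normexp background correction, and 0 to 6 with each array left out. The array weights stopped before they converged. Over all features the calls with age were 2304, against 739 without the filter, 1185 without scaling, 3770 with normexp, 5114 with array weights, 2 with the macrophage covariate, 1183 with age as the only term, and 259 to 2328 with each array left out. The median of members minus that of all features with age was -0.07, but -0.27 without the filter, which moves the median of all features to 0.13, and 0.19 with the covariate; it was -0.11 to -0.03 with each array left out. The gap between the highest and the lowest complex was 0.24 with age, 0.33 with normexp and with the mean of a gene's probes, and 0.40 with the covariate (0.18 to 0.30 with each array left out), with complex III highest and II lowest in each of these 3. With genotype, 0 members were called under every alternative, and the median of members minus all features was 0.06 (0.00 to 0.13 with each array left out), with a gap between complexes of 0.06 (0.04 to 0.11). With tumor, 0 members were called, except 4 with array weights, and 0 with any array left out. The median of members minus all features was 0.20 (0.13 to 0.27) and the gap 0.08 (0.05 to 0.12). Over all features the calls with tumor were 0 in the fit used above and without the filter on dim probes. They were 95 with tumor as the only term, 108 after quantile normalization and 254 in the authors' value table. Without scaling they were 282, and with an intensity trend 332. The most was 1697, with array weights. The interactions gave 0 members also when fitted alone with the 3 factors. Ndufa10, Sdha and Atp5h stayed below 0 with age under every alternative. The medians of complexes, which carry no call, did change sign with age: III and IV stood at 0.07 and 0.03 after quantile normalization and in the authors' value table, IV at 0.01 with array weights, I, III, IV and V at 0.13, 0.30, 0.27 and 0.17 with the covariate, and III and IV at 0.04 each without Young_PD-1KO with tumor. With genotype, medians of I, II, IV or V turned below 0 with the covariate or without 1 of Young_WT, Young_PD-1KO with tumor and Aged_WT with tumor. The cause of the lost and gained calls was not tested. The labels give no replicate numbers, so no replicate number could serve as a block; arrays alike in the other factors share those terms in the model, and a fit with each such pair as a block was not run.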

Other observations

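For the 17 members read by several probes, the gap between the dimmest and the brightest probe, relative to its mean over the arrays, had a median of 0.00, 0.09, 0.11 and 0.05 in young and -0.11, -0.18, -0.01 and 0.14 in aged mice, in the order WT, WT with tumor, PD-1KO and PD-1KO with tumor. The arrays Aged_WT and Aged_WT with tumor thus read lower at the dim probes of the same genes than at the bright ones.

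Atpif1, which blocks ATP synthase when it runs backwards, had levels of 4.82, 5.27, 4.88 and 5.84 in young and 5.10, 5.19, 5.09 and 5.50 in aged mice, in the same order of arrays. Its tumor arrays were above all tumor-free arrays, and the difference of 0.48 (SE 0.15, adjusted p = 0.163) did not pass.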
